A study of Mus musculus with 9 samples.

Results

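Long noncoding RNAs (lncRNAs) with known ties to the cell nucleus, *Malat1*, *Neat1*, *Miat*, *Snhg11* and *Pantr1*, were followed by name through single-cell RNA-seq of the mouse neocortex at E18.5. These 5 genes were among 17487 genes listed in at least 1 library, and each of the 5 was listed in all 9 libraries. The study asked how loss of the transcription factor TCF4 changes the late embryonic cortex, and 1 library was made per animal with the Chromium 3′ v2 kit, which tags RNA molecules at poly(A) with unique molecular identifiers (UMIs). WT animals (WT1 to WT5, n = 5) were compared with KO animals (KO1, KO2, KO4 and KO5, n = 4). KO animals carried a lacZ and neomycin cassette ahead of exon 4 on both *Tcf4* alleles, which removes the longest isoform, while shorter isoforms persist. Levels below are UMIs of a gene per 10000 UMIs of a cell, averaged over the cells of a library or class, and a cell's mitochondrial share is the percentage of its UMIs from mitochondrially encoded genes.

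Nuclear lncRNAs are transcribed like mRNAs but act, so far as they are known to act, without being translated. *Malat1* gathers in nuclear speckles, where splicing factors are stored, and is abundant in neurons, whereas *Neat1* is the scaffold of paraspeckles and *Miat* forms a nuclear domain of its own that holds splicing factors. *Snhg11* is a spliced RNA that carries small nucleolar RNAs in its introns and is known from neurons, and *Pantr1* lies beside *Pou3f3* (Brn1), a transcription factor of cortical progenitors and upper layer neurons. Since such RNAs stay largely in the nucleus while mitochondrial transcripts lie outside it, their share of a cell's UMIs has been read beside the mitochondrial share as a sign of how much of a droplet's RNA was nuclear.

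The annotation of GENCODE vM21 on GRCm38 places *Malat1* at chr19:5795690-5802672 and *Neat1* at chr19:5824708-5845478, both on the minus strand and 22035 bases apart. *Miat* lies at chr5:112213228-112229395 on the minus strand, *Snhg11* at chr2:158375638-158386145 on the plus strand and *Pantr1* at chr1:42590782-42694842 on the minus strand. The longest annotated transcripts span 6983 bases for *Malat1*, 20771 for *Neat1*, 9163 for *Miat*, 5864 for *Snhg11* and 2085 for *Pantr1*. That annotation gives *Snhg11* a protein-coding biotype, so its place among noncoding RNAs rests on its name and usage.

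The kit primes on runs of A, so 3′ ends are shown as stretches where molecules could have been primed. The mature ends of *Malat1* and of the long *Neat1* isoform are made by cutting in front of a tRNA-like RNA and carry no added poly(A) tail, unlike the short *Neat1* isoform and the other members. In *Malat1* the window around that end is shown, with its run of 12 A in capitals, followed by the tRNA-like stretch, in the transcript Malat1-201 (chr19:5795928-5796059, minus strand, GRCm38, exonic).
Malat1-201: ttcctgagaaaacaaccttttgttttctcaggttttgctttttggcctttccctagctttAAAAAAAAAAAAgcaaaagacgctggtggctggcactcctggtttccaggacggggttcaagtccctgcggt
For *Neat1* the last 60 bases of both isoforms are shown because only the short one is polyadenylated: Neat1-201 is the long isoform (chr19:5824708-5824767, minus strand) with a genomically encoded A-rich end in capitals, and Neat1-202 the short one (chr19:5842307-5842366, minus strand) with its poly(A) signal AATAAA in capitals.
Neat1-201: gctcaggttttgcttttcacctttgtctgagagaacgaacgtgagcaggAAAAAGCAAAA
Neat1-202: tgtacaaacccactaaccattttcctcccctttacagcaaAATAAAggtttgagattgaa
For the other members the last 60 bases of chosen transcripts with a poly(A) signal are shown, AATAAA or its variant ATTAAA again in capitals. AATAAA stood there in 0 of 6 annotated transcripts of *Miat*, 2 of 5 of *Snhg11* and 9 of 12 of *Pantr1*. It also stood there in 3 of 4 of *Malat1* and 1 of 4 of *Neat1*. The run of 12 A was in 1 of the 4 of *Malat1*. Shown are Miat-205 (chr5:112213228-112213287, minus strand), Snhg11-201 (chr2:158386086-158386145, plus strand), Pantr1-208 (chr1:42590782-42590841, minus strand) and Pantr1-209 (chr1:42648193-42648252, minus strand).
Miat-205: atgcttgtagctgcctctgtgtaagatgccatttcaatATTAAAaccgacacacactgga
Snhg11-201: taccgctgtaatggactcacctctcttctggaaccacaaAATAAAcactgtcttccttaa
Pantr1-208: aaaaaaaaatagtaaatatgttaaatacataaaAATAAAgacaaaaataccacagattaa
Pantr1-209: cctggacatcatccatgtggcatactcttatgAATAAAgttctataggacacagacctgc

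On the transcript strand, AATAAA stood in the last 60 bases of 27.1% of the 141767 annotated transcripts, and AATAAA or ATTAAA in 34.4%. A run of 12 A occurred in 4.07% of transcripts. *Malat1* and long *Neat1* share the 16-base stretch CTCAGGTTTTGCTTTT in front of their ends, which these 2 transcripts alone held among all annotated ones (0.00141%), whereas the A-rich stretch AAAAAGCAAAA was found in 618 transcripts (0.436%). A match describes the letters of a transcript and does not show where a given molecule was primed.

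After limits on genes, UMIs, mitochondrial share and haemoglobin, 19681 of 22147 deposited cells were kept, from 118 in KO2 and 126 in WT1 to 6173 in WT4. The haemoglobin limit took 40.4% of the cells of KO5 and 13.9% of KO4, but 0.421 to 4.34% of the other libraries, so that the loss was unequal between the genotypes. *Malat1* was at 189 in the removed cells of KO5 against 261 in those kept, and at 201 against 212 in KO4. Median UMIs per kept cell ranged from 2217 to 4359 and median mitochondrial share from 3.58 to 4.91%. *Tcf4* itself was at 4.65, 12.2, 12.6, 12.2 and 7.20 UMIs per 10000 in WT1 to WT5 and at 16.7, 9.12, 9.29 and 7.59 in KO1, KO2, KO4 and KO5. The 3′ tags lie downstream of the cassette and shorter isoforms persist in KO, so *Tcf4* counts need not follow genotype. The libraries labelled WT5, WT1 (163 *Tcf4* UMIs) and KO1 went against their labels in direction. They are named as labelled throughout. The study left out libraries with few cells and a WT animal with low *Tcf4*, without naming them, and from this WT2, WT3, WT4, KO4 and KO5 were taken as the libraries to compare. KO5, in which no *Xist* was seen, was taken as male and the other libraries as female. Libraries shared at most 2.50% of the barcodes of the smaller one.

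Cells were gated into 12 classes by marker genes that did not include the members. Genes outside the gate showed the classes to be far less distinct in WT5, KO4 and KO5: 3 such genes of cycling cells were 15.2 to 18.3 times as high in that class as in other cells in WT2 to WT4 (median of the 3), but 1.94 to 3.04 times in those 3 libraries. For radial glia or astrocytes the ratios were 8.94 to 12.2 against 1.82 to 2.97. For Cajal-Retzius cells they were 5.18 to 11.1 (WT2 and WT4) against 1.59 to 2.69, and for interneurons 1.81 to 3.36 against 0.717 to 1.06. Upper layer cells (1.23 to 1.41 against 0.998 to 1.21) and newborn neurons (1.09 to 1.13 against 0.958 to 1.06) were little set apart in any of these libraries, and deep layer cells (1.51 to 3.67 against 0.994 to 1.16) in the latter. Results within or between classes that rest on WT5, KO4 and KO5 are therefore given also without them, except between genotypes, where the compared KO libraries are KO4 and KO5.

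*Malat1* was the gene with the most UMIs in every library but WT1, where it ranked 2, and a UMI of it was seen in 99.2 to 100% of cells. In all it gave 1456205 UMIs, 1.77 to 4.87% of the UMIs of a library. Mean levels per 10000 were 180, 292, 184, 192 and 270 in WT1 to WT5, and 496, 431, 212 and 261 in KO1, KO2, KO4 and KO5. KO1 and KO2, both with few cells (331 and 118), were the highest, and KO4 and KO5 lay within the range of the WT libraries. The mean was 224 ± 53.1 in WT (SD, n = 5) and 350 ± 135 in KO (SD, n = 4), a difference within the spread between libraries (2-sided exact permutation test, p = 0.127, smallest possible 0.0159). In WT2, WT3, WT4, KO4 and KO5 it was 223 ± 60.2 (n = 3) against 237 ± 35.0 (n = 2; exact permutation p = 1, smallest possible 0.2).

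Cells of a library also differed widely, to an extent that varied between libraries, as the plot of *Malat1* per library shows. In KO2 the 10th and 90th percentiles of cells lay at 41.7 and 1041 per 10000, and in WT3, the narrowest, at 87.5 and 298. The median cell lay at 79.2, 269, 171, 173 and 193 in WT1 to WT5 and at 470, 313, 156 and 207 in KO1, KO2, KO4 and KO5.

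**Figure D1:**
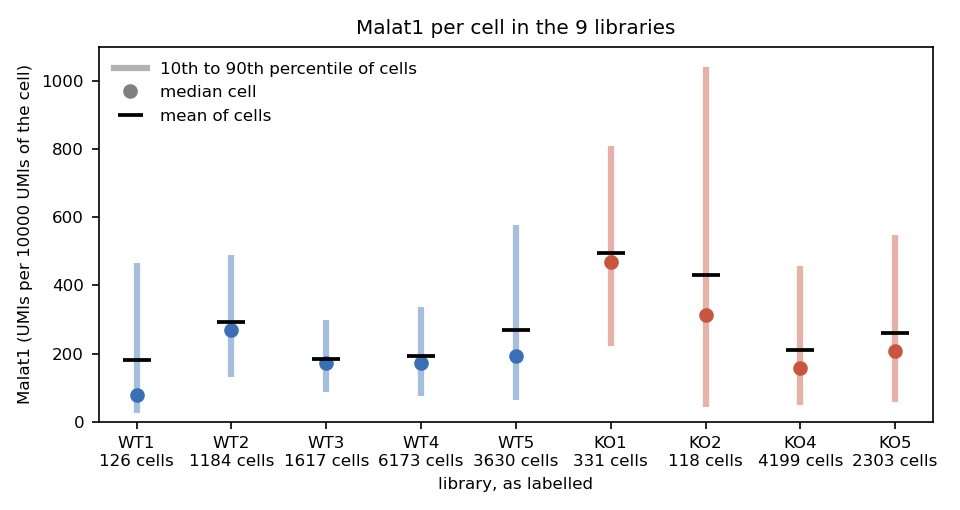
*Malat1* per library, in UMIs per 10000 UMIs of a cell with the median cell as a point, the mean of cells as a dash and the 10th to 90th percentile of kept cells as a bar. Means run from 180 in WT1 to 496 in KO1, and the bar is longest in KO2 (41.7 to 1041).

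*Neat1*, the paraspeckle scaffold, was close to absent: 124 UMIs in 122 of the 19681 kept cells. No UMI was seen in WT1 or KO2, where a count of 0 allows levels of up to 0.0893 and 0.0648 per 10000, and the other 7 libraries lay between 0.0113 and 0.0270. A difference between genotypes was not detectable at this depth (exact permutation p = 0.698, 5 against 4 libraries).

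*Miat* was low, at 1.002, 0.516, 0.490, 0.551 and 0.454 in WT1 to WT5 and at 0.579, 0.794, 0.471 and 0.591 in KO1, KO2, KO4 and KO5, with p = 0.968 in the exact permutation test. The highest value came from 32 UMIs in the 126 cells of WT1.

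*Snhg11* was at 0.919, 0.523, 0.0922, 0.479 and 0.829 in WT1 to WT5, and 0.966, 0.626, 0.408 and 0.575 in the KO libraries (exact permutation p = 0.683). WT3 stood far below the other libraries. *Pantr1* was at 6.89, 11.3, 12.3, 7.42 and 6.56 in WT and at 13.7, 10.6, 7.26 and 7.497 in KO (exact permutation p = 0.619). For all 5 members the WT and KO ranges overlapped, and the p-values rest on the spread between animals, 1 library each.

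Next, levels were compared between cell classes, each against upper layer cells (callosal projection neurons) of the same library. *Snhg11* was far higher in Cajal-Retzius cells, the early-born *Reln* neurons of layer I. *Pantr1* was lower in Cajal-Retzius and endothelial cells. *Malat1* and *Miat* passed the test in no class. These were 3 calls among 40 combinations of 4 members and 10 classes, *Neat1* apart (limma with library as block, Benjamini-Hochberg adjusted p under 0.05 over all 12376 genes). Of all genes, 7.05% were called in Cajal-Retzius cells, 24.7% in endothelial cells, 10.3% in microglia, 12% in radial glia or astrocytes, 7.72% in cycling cells, 1.92% in intermediate progenitors, 0.679% in striatal neurons, 0.388% in interneurons, 0.137% in deep layer cells and 0.113% in newborn neurons. Calls of members were 2 of 4 in Cajal-Retzius cells, and 1 of 4 in endothelial cells, a share at the background.

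*Snhg11* in Cajal-Retzius cells was at 10.9 in WT2 (189 UMIs in 37 cells), 15.0 in WT4 (495 UMIs in 48 cells), 3.49 in WT5 (43 UMIs in 52 cells) and 5.98 in KO4 (75 UMIs in 53 cells). Upper layer cells of the same libraries were at 0.0699, 0.224, 0.809 and 0.269. Every library thus had the higher value in Cajal-Retzius cells, and the ratio was largest in WT2 and smallest in WT5, where the class was poorly separated. The fitted log2 difference was 2.59 ± 0.20 (SE; adjusted p = 6.8e-14, limma), and 3.301 without WT5, KO4 and KO5. The call held in all 15 alternatives, from 2.16 to 4.03.

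With every cell thinned to 1800 UMIs, a *Snhg11* UMI was seen in 67.6% of Cajal-Retzius cells in WT2 (exact 95% binomial interval 50.2 to 82.0%), in 54.2% in WT4 (39.2 to 68.6%), in 30.8% in WT5 (18.7 to 45.1%) and in 54.7% in KO4 (40.4 to 68.4%). In upper layer cells it was 1.74, 2.99, 12.2 and 4.77%. The intervals cover counting error only. Median UMIs per cell of the 2 classes, in the same order of libraries, were 3672, 6303, 2282 and 2224 against 2472.5, 5234, 2276 and 2325. The 228 gated Cajal-Retzius cells of all libraries held 945 of the 3458 *Snhg11* UMIs of kept cells, or 27.3%. *Malat1* in the same cells was at 370, 276, 301 and 204, against 275, 163, 281 and 222 in upper layer cells, so that it was higher in WT2, WT4 and WT5 and lower in KO4. Its log2 difference was 0.27 ± 0.13 (adjusted p = 0.25) in all libraries and 0.53 (adjusted p = 0.021) without WT5, KO4 and KO5.

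**Figure D2:**
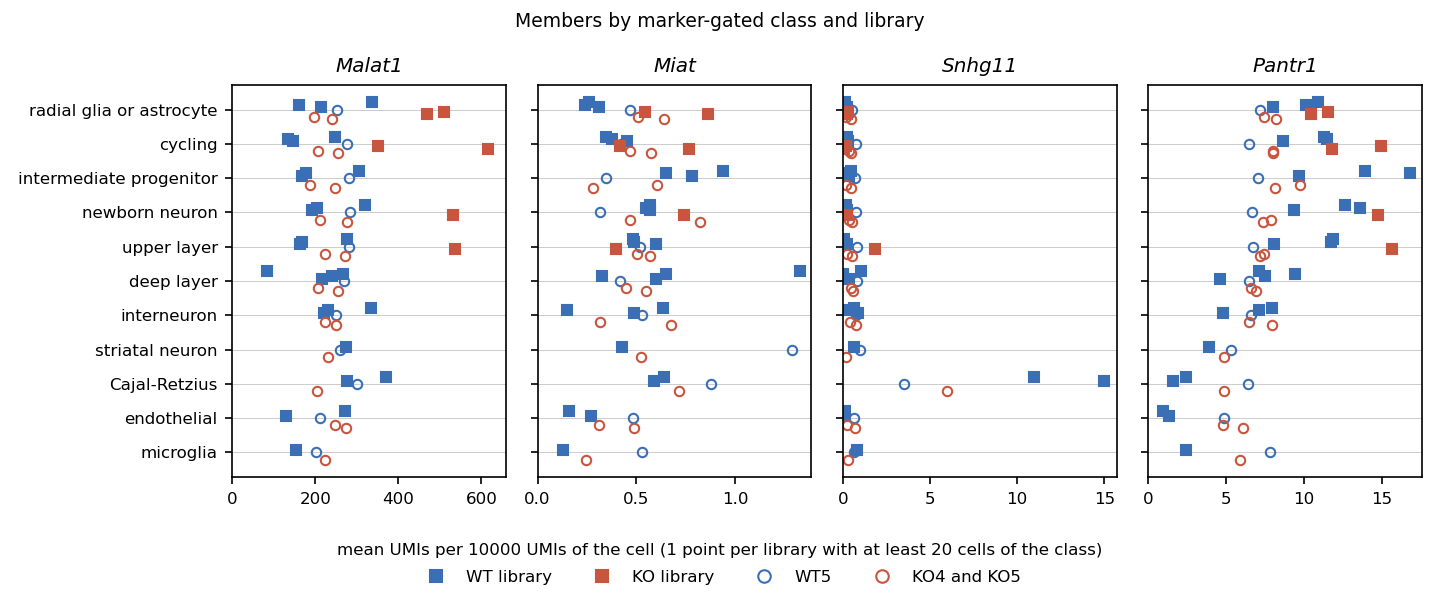
*Malat1*, *Miat*, *Snhg11* and *Pantr1* in gated classes, as mean UMIs per 10000 UMIs of a cell, with 1 point per library of at least 20 cells of the class (WT blue, KO red, open circles for WT5, KO4 and KO5). *Snhg11* stands apart in Cajal-Retzius cells (3.49 to 15.0), *Pantr1* is lowest in endothelial and Cajal-Retzius cells of WT2 and WT4, and the *Malat1* points of the classes overlap.

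*Pantr1* in endothelial cells, which line blood vessels and come from outside the neural lineage, was at 0.982 in WT2, 1.33 in WT4, 4.85 in WT5, 4.82 in KO4 and 6.08 in KO5. Upper layer cells were at 11.9, 8.08, 6.75, 7.42 and 7.19. The difference was −1.20 ± 0.23 (adjusted p = 7.1e-05), and −2.37 without WT5, KO4 and KO5, and it held in 15 of 15 alternatives. In Cajal-Retzius cells *Pantr1* was at 2.42 in WT2, 1.60 in WT4, 6.44 in WT5 and 4.85 in KO4, with a difference of −1.06 ± 0.25 (adjusted p = 0.0040) and of −1.896 without the 3 libraries. It was lower than in upper layer cells in every library, but the call was lost without WT2 (−0.80, adjusted p = 0.054) or without WT4 (−0.83, adjusted p = 0.11). WT2 and WT4, whose classes were the most distinct, thus showed the widest gap in both comparisons.

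*Neat1* in microglia, the immune cells of the brain, was at 0.284 in WT4 (6 UMIs in 56 cells), 0.120 in KO4 (2 UMIs in 54 cells) and 0 in WT5 (22 cells), against 0.0213, 0.0174 and 0.0145 in upper layer cells. *Neat1* passed the filter on low values only with these microglia values, the group where it was highest, so they stand as a description with no test.

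Of the 3 calls 2 were left without WT2 or without WT4, and without WT5, KO4 and KO5 there were 7. *Pantr1* was then also lower in deep layer cells (−0.57, adjusted p = 0.0041) and interneurons (−0.64, adjusted p = 0.00018), and *Miat* in endothelial cells (−0.32, adjusted p = 0.016). *Malat1* was then called higher in Cajal-Retzius cells, with the values given above. *Malat1* by class ranged from 163 to 537 over the 7 libraries with enough upper layer cells, from 135 to 615 in cycling cells (n = 8), from 193 to 531 in newborn neurons (n = 7) and from 222 to 335 in interneurons (n = 6). In the fit of all libraries the *Malat1* difference from upper layer cells was called in no class. It was −0.21 ± 0.11 (adjusted p = 0.30) in cycling cells and lay between −0.18 and 0.27 in the other classes. That fit included WT5, KO4 and KO5, whose classes were less distinct. *Miat* had medians over libraries of 0.503 in upper layer cells, 0.568 in newborn neurons, 0.628 in intermediate progenitors and 0.437 in cycling cells, with overlapping ranges.

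Genes near or akin to the members showed where these patterns were shared. *Meg3*, an imprinted lncRNA of neurons, was also higher in Cajal-Retzius cells (1.45, adjusted p = 0.0017), and *Pou3f3*, the neighbour of *Pantr1*, was lower there (−0.68, adjusted p = 0.0023) and in endothelial cells (−0.74, adjusted p = 6.9e-05). Without WT5, KO4 and KO5 these were 2.06, −1.11 and −1.48, all called. In microglia the crystallin genes beside *Miat* were higher, *Crybb1* by 1.71 and *Cryba4* by 0.55, while *Miat* itself differed by −0.22 (adjusted p = 0.25). *Dlx6os1*, the antisense lncRNA of the interneuron gene *Dlx6*, was higher in interneurons (1.02) and in cycling cells (0.70). Among snoRNA hosts *Snhg18* was higher in intermediate progenitors (0.75) and in radial glia or astrocytes (0.57). Of proteins that bind *Miat*, *Qk*, a glial splicing regulator, was higher in radial glia or astrocytes (1.30), cycling (0.79) and endothelial cells (0.73), and *Celf3*, a neuronal splicing regulator, was lower in radial glia or astrocytes (−0.51), cycling cells (−0.49), microglia (−0.47), Cajal-Retzius (−0.43) and endothelial cells (−0.41). Without WT5, KO4 and KO5 these differences of *Dlx6os1*, *Snhg18*, *Qk* and *Celf3* were larger and called, from 0.78 to 2.04 in the higher and from −0.89 to −0.56 in the lower ones. Microglia could then not be fitted, with 1 library.

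As a description, the genes whose levels ran most alike over the 65 combinations of library and class with at least 20 cells (2966 genes compared, Pearson's r on the log2 scale) were *Reln* (0.93), *Calb2* (0.86) and *Pcp4* (0.83) for *Snhg11*. *Reln* and *Calb2* belong to the Cajal-Retzius gate. For *Pantr1* they were *Pou3f2* (0.83), *Pou3f3* (0.81) and *Ldhb* (0.78), and for *Neat1* *Lgmn* (0.78), *Ctsl* (0.73) and *Ctsz* (0.72), lysosomal genes that are high in microglia. For *Malat1* they were *Supt5* (0.72), *Tro* (0.66) and *Rpl6* (0.64), and for *Miat* *Usmg5* (0.46), *Abcc5* (0.45) and *Trappc4* (0.44). *Neat1* had 124 UMIs in all kept cells, of which 10 lay in gated microglia and 0 in Cajal-Retzius cells or striatal neurons. The r values of *Neat1* thus rest on few UMIs, and the part of the microglia points in them was not tested. Points of 1 library share its depth and preparation. In the 35 points without WT5, KO4 and KO5, *Pou3f3* and *Pantr1* were at 0.89 and *Supt5* and *Malat1* at 0.82.

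KO and WT were then compared within classes in WT2, WT3, WT4, KO4 and KO5, 3 WT against 2 KO. In all cells no member was called of the 4 that passed the filter on low values (*Neat1* did not; limma), against 1.15% of all genes, and 0 had an unadjusted p under 0.05, against 25.7% of all genes. The log2 difference of *Malat1* was 0.11 ± 0.27 (SE, adjusted p = 0.80) and that of *Pantr1* −0.41 ± 0.20 (adjusted p = 0.22). Over 7 classes there were 3 calls among 28 combinations: *Snhg11* was higher in KO newborn neurons and KO cycling cells, and *Pantr1* was lower in KO newborn neurons. The count was 0 without WT3 or without KO5, 1 without KO4 and 9 without WT4. In these libraries genotype ran together with other traits. KO4 and KO5 had the less distinct classes and fewer UMIs per cell. Their medians were 2290 and 2217, against 2478.5, 3636 and 4359 in WT2, WT3 and WT4. Genotype cannot be told apart from these traits here. Calls among all genes were 5.6% in newborn neurons, 18.2% in cycling cells, 8.83% in radial glia or astrocytes, 5.25% in intermediate progenitors, 2.81% in upper layer cells, 0.891% in interneurons and 0.491% in deep layer cells. In the last 5 classes limma called 0 members, and 2, 2, 2, 0 and 1 of 4 had an unadjusted p under 0.05, against 24.8, 19.3, 19.2, 11.4 and 8.41% of all genes. The call in cycling cells, 1 of 4 members, is near the share of all genes called there. On summed UMIs DESeq2 called 0 of these combinations, and edgeR called 1, *Miat* in radial glia or astrocytes (1.18, adjusted p = 0.038; limma 0.31 ± 0.10, adjusted p = 0.063).

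In newborn neurons *Snhg11* was at 0.181 in WT2, 0.00552 in WT3, 0.229 in WT4, 0.347 in KO4 and 0.546 in KO5. Both KO libraries were above the 3 WT ones, and WT3 was nearly at 0. The difference was 0.35 ± 0.09 (adjusted p = 0.034). It was 0.26 (adjusted p = 0.061) without WT3, 0.45 (adjusted p = 0.052) without KO4 and 0.25 (adjusted p = 0.50) without KO5. The libraries not used lay at 0.735 (WT5) and 0.213 (KO1), so that the WT5 value was above both KO libraries, and with all libraries as labelled the groups overlapped (0.11, adjusted p = 0.89).

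In cycling cells *Snhg11* was at 0.228 in WT2, 0.0154 in WT3, 0.295 in WT4, 0.362 in KO4 and 0.497 in KO5, with a difference of 0.28 ± 0.09 (adjusted p = 0.038). WT5 was at 0.745, KO1 at 0.173 and KO2 at 0.0571, and with all libraries as labelled the difference was −0.04 (adjusted p = 0.97). It missed the threshold without WT3 (0.18, adjusted p = 0.17), without KO4 (0.35, adjusted p = 0.068) and without KO5 (0.22, adjusted p = 0.32). Both *Snhg11* calls held in 7 of 19 alternatives. The class check of cycling cells, 15.2 to 18.3 in the WT libraries against 1.94 to 3.04 in KO4 and KO5, moved with genotype here, and its part in the result was not tested.

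*Pantr1* in newborn neurons was at 12.7 in WT2, 13.6 in WT3, 9.38 in WT4, 7.87 in KO4 and 7.37 in KO5. All WT libraries were above the KO libraries, yet WT5 was lower still (6.65) and KO1 higher than any (14.7). The difference of −0.57 ± 0.16 (adjusted p = 0.048) held in 4 of 19 alternatives and was lost without WT2 (−0.51, adjusted p = 0.10), WT3 (−0.47, 0.077), KO4 (−0.61, 0.26) or KO5 (−0.52, 0.54). With WT5 added it was −0.38 (adjusted p = 0.67). The differences of *Malat1* lay between −0.12 in interneurons and 0.43 in cycling cells and were not called in any class. A change of the genotype difference between radial glia or astrocytes and upper layer cells was called for 0 of 4 members (limma interaction, against 5.65% of 9654 genes). An unadjusted p under 0.05 was seen for 1, against 18.6% of all genes. The fit had no term for library, so both classes of an animal entered as independent samples. A missed call here does not show that the differences were equal. For *Malat1* this interaction was −0.37 ± 0.40 (adjusted p = 0.71).

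**Figure D3:**
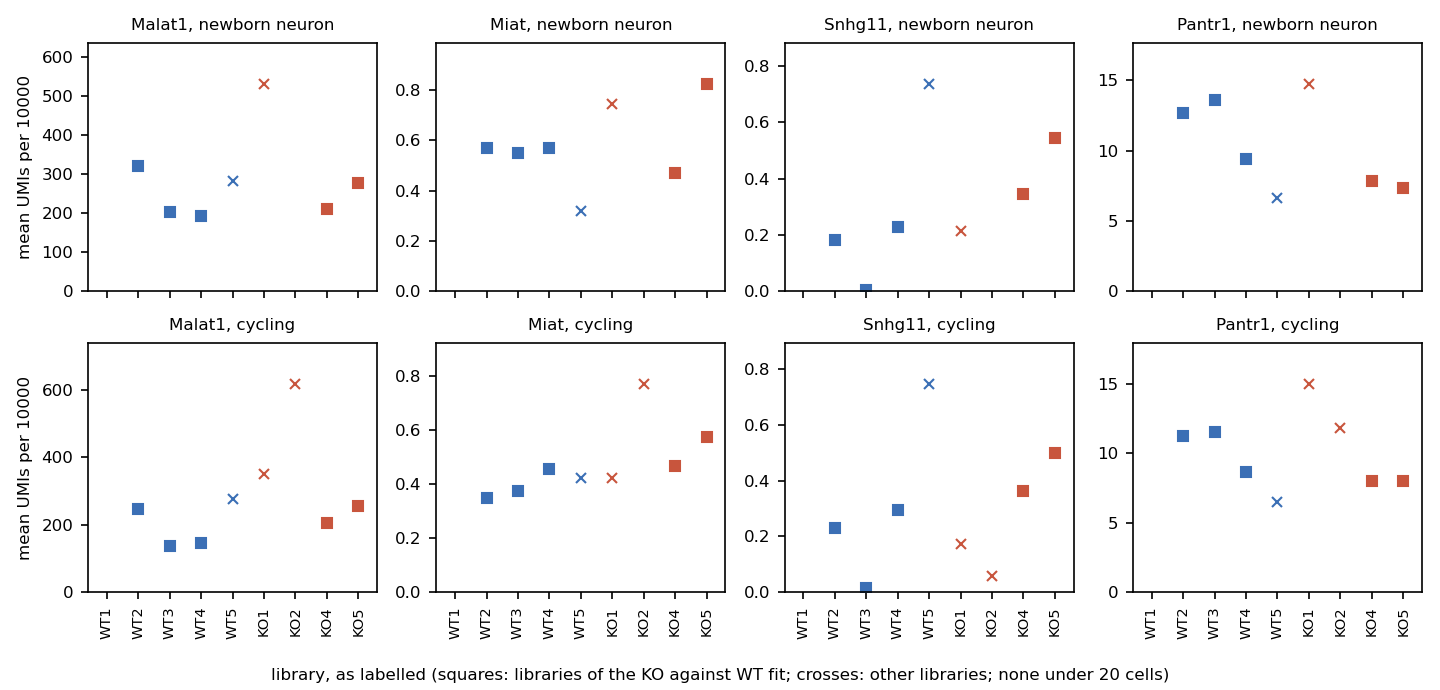
*Malat1*, *Miat*, *Snhg11* and *Pantr1* by library in newborn neurons and cycling cells, as mean UMIs per 10000 UMIs of a cell, with the 5 compared libraries as squares and the others as crosses. In newborn neurons KO4 and KO5 lie above WT2, WT3 and WT4 for *Snhg11* and below them for *Pantr1*, while WT5 lies above KO5 for *Snhg11* and KO1 above WT3 for *Pantr1*.

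Proteins and RNAs of the same nuclear bodies were counted from lists. In all cells no gene of 6 lists was called between KO and WT (91 genes higher and 7 lower in KO among all). In cycling cells 11 of 18 nuclear speckle proteins were lower in KO and 0 higher (median −0.46; *Ddx5* −0.60, *Srsf3* −0.50), as were 8 of 15 paraspeckle proteins (median −0.47, 0 higher; *Hnrnpk* −0.80), beside 573 genes higher and 1031 lower among all 8797 (median −0.04). Of 6 snoRNA hosts 3 were higher and 0 lower, *Snhg6* (0.71), *Epb41l4aos* (0.56) and *Snhg12* (0.48). Of the other lncRNAs, *Dlx6os1* was lower (−1.001), and of the proteins that bind *Miat*, *Qk* (−0.75) and the splicing factor *Srsf1* (−0.68) were lower and *Celf3* was higher (0.38). In newborn neurons 4 speckle and 2 paraspeckle proteins were lower and 0 higher, and 3 snoRNA hosts were higher and 0 lower, beside 240 genes higher and 233 lower among all 8441. In intermediate progenitors it was 4 speckle and 3 paraspeckle proteins lower, with *Snhg6* (0.73) and *Snhg12* (0.59) higher, beside 194 genes higher and 271 lower among all 8855. In radial glia or astrocytes *Snhg6* (0.88) and *Snhg12* (0.52) were also higher and *Qk* was lower (−1.36), and in interneurons *Dlx6os1* was lower (−1.66). In upper layer cells *Epb41l4aos* (0.40) and *Qk* (0.35) were higher. The interaction of genotype with class for *Qk*, between radial glia or astrocytes and upper layer cells, was −1.70 (adjusted p = 4.4e-05, limma). That fit had no term for library and took the classes of an animal as independent samples. The class check differed between these WT and KO libraries as given above. Genotype thus cannot be told apart from how distinct the classes were in any of these differences. *Qk*, *Dlx6os1* and *Celf3* were also among the genes that differed between classes.

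To relate the members to UMIs per cell, cells above the median UMIs of their library and class were set against those below. No member was called in any of 7 classes (limma with library as block; *Malat1*, *Miat*, *Snhg11* and *Pantr1* tested in each and *Neat1* in intermediate progenitors; 1 of 4 members at an unadjusted p under 0.05 in interneurons, radial glia or astrocytes and upper layer cells each, against 4.29, 5.49 and 7.36% of all genes, and 0 elsewhere). Of all genes 0.0394% were called in cycling cells and 0% in each of the other 6 classes. Direction differed between libraries. In upper layer cells the log2 ratio of *Malat1* in the deeper against the shallower cells was 0.03 in WT2, −0.20 in WT3, −0.08 in WT4, 0.25 in WT5, 0.06 in KO4 and 0.18 in KO5. In deep layer cells it was −0.35 in WT2, −0.44 in WT3 and −0.31 in WT4, but 0.32, 0.07 and 0.28 in WT5, KO4 and KO5. Without the last 3 libraries, a setting added after the data were seen, the deep layer difference was called (−0.36, adjusted p = 2.6e-10, limma). That fit rests on WT2, WT3 and WT4 alone and leaves out the libraries of opposite sign.

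*Pantr1* split the libraries in the same way. In upper layer cells it fell from 14.2 in shallower to 9.58 in deeper cells in WT2, from 13.6 to 9.78 in WT3 and from 9.31 to 6.86 in WT4. It was at 6.61 and 6.88 in WT5, 7.27 and 7.57 in KO4, and 7.09 and 7.29 in KO5. Ratios were −0.52, −0.44 and −0.39 in the former and 0.04 to 0.05 in the latter. In the same added setting, without WT5, KO4 and KO5, the difference was called (−0.45, adjusted p = 0.00039, limma). By quartiles of UMIs per cell the level in WT2 went from 15.6 to 12.7, 10.4 and 8.73, whereas in WT5, KO4 and KO5 every quartile lay between 6.32 and 7.597. The quartiles spanned unequal depths. Median UMIs of the lowest and highest were 1961 and 3607 in WT2, 2815.5 and 5843 in WT3, and 3485.5 and 7603 in WT4. They were 1935 and 3008 in WT5, 1959 and 3400.5 in KO4, and 1929 and 3030 in KO5.

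**Figure D4:**
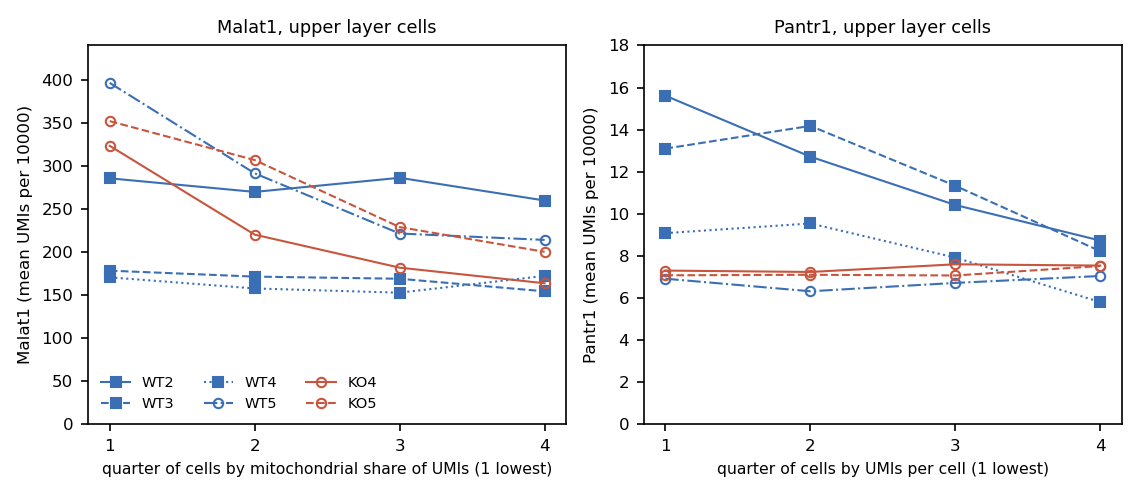
Upper layer cells of each library in quartiles, with *Malat1* by mitochondrial share (left) and *Pantr1* by UMIs per cell (right), as mean UMIs per 10000 UMIs of a cell, 1 line per library. The lines of WT5, KO4 and KO5 descend for *Malat1* (396.5 to 214 in WT5) and are flat for *Pantr1*, and the *Pantr1* lines of WT2, WT3 and WT4 end below where they start (15.6 to 8.73 in WT2).

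By mitochondrial share, *Malat1* was lower in the upper layer cells with the larger share in 6 of 6 libraries. Means in cells below and above the median share were 278 and 273 in WT2, 175 and 162 in WT3, 164 and 162 in WT4, 344 and 218 in WT5, 272 and 173 in KO4, and 329 and 215 in KO5. The gap was wide in WT5, KO4 and KO5 and narrow in WT2, WT3 and WT4. The fitted log2 difference was −0.35 ± 0.13 (SE) and was not called (adjusted p = 0.61). Without WT5, KO4 and KO5 it was −0.05. By quartiles of mitochondrial share *Malat1* went from 396.5 to 291, 221.5 and 214 in WT5, from 323 to 220, 182 and 164 in KO4, and from 352 to 307, 229 and 200 in KO5. In WT4 the quartiles were at 171, 158, 153 and 172.

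Spearman's rho over upper layer cells, as a description, was −0.33 in WT5, −0.34 in KO4 and −0.29 in KO5 , beside −0.11 in WT2, −0.13 in WT3 and −0.03 in WT4. Both measures are shares of the same UMIs. *Malat1* was lower among the cells of larger share in 6 of 6 libraries in deep layer cells, in 6 of 7 in newborn neurons and in radial glia or astrocytes, in 5 of 7 in cycling cells, in 5 of 6 in interneurons and in 3 of 6 in intermediate progenitors. No member was called in these 7 classes (limma, with 1 member at an unadjusted p under 0.05 in each class but interneurons, where there was 0, against 4.47 to 8.66% of all genes). The share of all genes called was 0.266% in upper layer cells, 0.0736% in deep layer cells, 0.137% in newborn neurons, 0.0855% in intermediate progenitors, 0.223% in radial glia or astrocytes, 0.377% in cycling cells and 0.0797% in interneurons. *Malat1* was called in deep layer cells without WT2 (−0.39, adjusted p = 0.038), and in radial glia or astrocytes without WT5 (−0.23, adjusted p = 0.0098). In Cajal-Retzius cells the 3 libraries with enough cells had log2 ratios of −1.26 to −0.51.

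*Pantr1* had no common direction. It was higher among the cells of larger mitochondrial share in 4 of 6 libraries in upper layer and in deep layer cells, 5 of 7 in newborn neurons, 6 of 7 in cycling cells, 3 of 7 in radial glia or astrocytes and 3 of 6 in intermediate progenitors and in interneurons, with median log2 ratios between −0.04 and 0.06. None of these was called. The test of whether these ratios differ between genotypes cannot go below p = 0.133 with the 6 libraries of at least 40 upper layer cells or p = 0.2 with the 5 (exact permutation), so it says nothing on either side. For the ratio of *Malat1* by mitochondrial share the exact p was 0.4 and 0.2. The decline was steep in WT5, KO4 and KO5. *Tcf4* in WT5 (7.20) lay below KO4 (9.29) and KO5 (7.59), against its label, so a relation to genotype cannot be read from these labels.

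Cells rich in *Malat1* were then compared with the others, in a comparison added after the data were seen. Cells above the median *Malat1* share of their library and class were set against those below, with *Malat1* left out of the UMI total. *Meg3* and *Kcnq1ot1*, both imprinted nuclear lncRNAs, and *Pnisr*, a splicing-related speckle protein, were higher in the *Malat1*-rich cells of several classes. *Miat*, *Snhg11* and *Pantr1* were called in none of 7 classes (limma, with 1 or 2 of the tested members at an unadjusted p under 0.05 in each, against 5.93 to 12.2% of all genes). Calls among all genes were 0.638% in upper layer cells, 0.0417% in deep layer cells, 0.187% in newborn neurons, 0.415% in intermediate progenitors, 0.184% in radial glia or astrocytes, 0.932% in cycling cells and 0.00992% in interneurons.

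*Meg3* in radial glia or astrocytes was at 3.77 in *Malat1*-poor and 6.83 in *Malat1*-rich cells in WT2, 1.199 and 2.97 in WT3, 4.05 and 9.85 in WT4, 10.2 and 12.97 in WT5, 3.53 and 6.25 in KO1, 6.20 and 10.1 in KO4, and 7.15 and 10.2 in KO5. In deep layer cells it was at 6.51 and 13.4 in WT2, 9.32 and 19.1 in WT3, 17.9 and 36.0 in WT4, 11.1 and 15.0 in WT5, 8.63 and 14.5 in KO4, and 9.21 and 11.6 in KO5. The *Malat1*-rich cells had more *Meg3* in every library of both classes. Log2 differences were 0.68 in radial glia or astrocytes (adjusted p = 0.00010), 0.71 in deep layer cells (adjusted p = 0.010), 0.70 in intermediate progenitors (adjusted p = 6.3e-05), 0.78 in interneurons (adjusted p = 0.031) and 0.42 in newborn neurons (adjusted p = 0.011). In upper layer cells it was higher in 6 of 6 libraries, from 3.57 to 6.06 in WT2 and from 6.26 to 14.3 in WT4 but only from 3.63 to 3.88 in WT3, and was not called (0.51, adjusted p = 0.12), nor was it in cycling cells (0.82, adjusted p = 0.081). Without WT5, KO4 and KO5 the difference was 0.84 in radial glia or astrocytes, 0.96 in deep layer cells, 0.91 in intermediate progenitors, 1.11 in interneurons and 1.13 in cycling cells, all called, while the call in newborn neurons was lost (0.41, adjusted p = 0.44). Across library and class means, by contrast, *Malat1* and *Meg3* had an r of only 0.18 (65 points).

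*Kcnq1ot1* was higher in *Malat1*-rich upper layer cells (0.36, adjusted p = 0.019), newborn neurons (0.41, adjusted p = 0.0015) and cycling cells (0.38, adjusted p = 0.014). *Pnisr* was higher in 5 classes, by 0.37 in cycling cells to 0.51 in radial glia or astrocytes. *Xist*, the lncRNA of the inactive X, was called in radial glia or astrocytes (0.40, adjusted p = 0.044), with no *Xist* in KO5, taken as male. Of the speckle scaffold genes, *Son* was higher in radial glia or astrocytes (0.49, adjusted p = 0.0072) and upper layer cells (0.19, adjusted p = 0.041), and of paraspeckle genes *Sfpq* in upper layer (0.18, adjusted p = 0.028) and cycling cells (0.27, adjusted p = 0.042). Without WT5, KO4 and KO5 these calls of *Kcnq1ot1*, *Pnisr* and *Sfpq*, and that of *Son* in upper layer cells, were all lost (*Kcnq1ot1* 0.22, *Pnisr* 0.30, *Son* 0.20 and *Sfpq* 0.13 in upper layer cells), while those of *Son* (0.63) and *Xist* (0.60) in radial glia or astrocytes were not. In upper layer cells this was 2 of 18 speckle proteins, 1 of 15 paraspeckle proteins and 0 of 6 snoRNA hosts, with medians of 0.07, 0.04 and 0.00 beside a median of 0.01 over all 9096 genes. No snoRNA host was called in any of the 7 classes. *Pantr1* was on average lower in the *Malat1*-rich cells in all 7 classes, by log2 differences from −0.36 to −0.11, and was called only without WT5, KO4 and KO5, in interneurons (−0.67, adjusted p = 0.024). Median mitochondrial share was 3.77 to 5.15% in *Malat1*-poor and 3.72 to 4.53% in *Malat1*-rich upper layer cells of the 6 libraries, and its part in these differences was not tested.

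**Figure D5:**
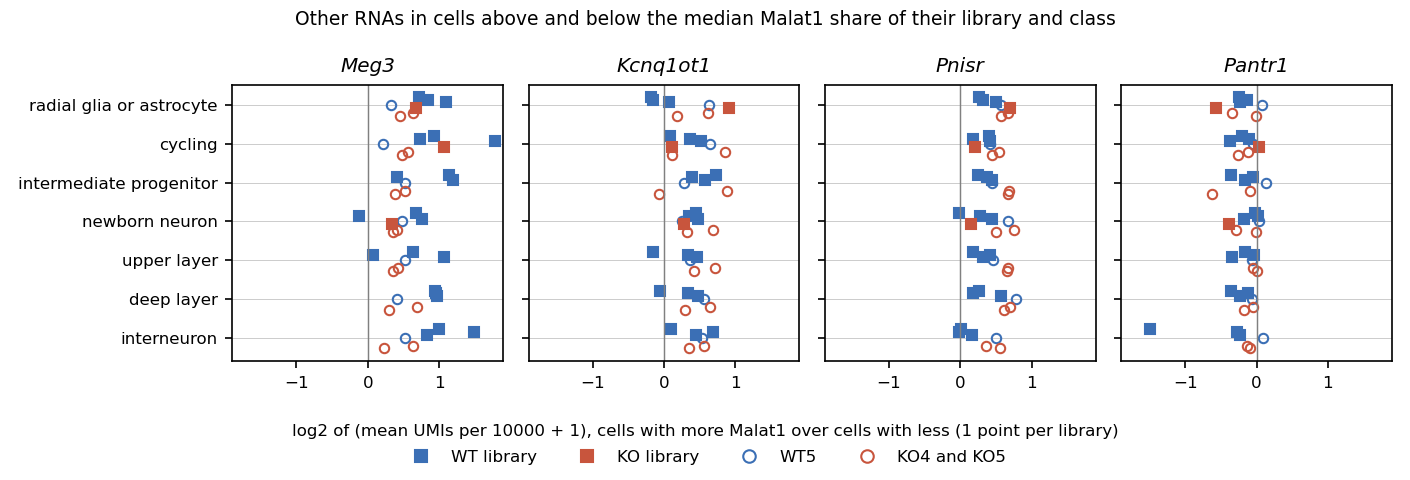
Log2 difference in mean UMIs per 10000 (plus 1) of *Meg3*, *Kcnq1ot1*, *Pnisr* and *Pantr1* between *Malat1*-rich and *Malat1*-poor cells, 1 point per library and class (WT blue, KO red, open circles for WT5, KO4 and KO5). *Meg3* is above 0 in every point but 1, WT3 newborn neurons (−0.12), and most *Pantr1* points are below 0.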

How the data were processed

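Neocortices of single E18.5 embryos were profiled with Chromium 3′ v2. Per the submitters' notes and the study's methods, the authors aligned reads to GRCm38 (Ensembl 84) with Cell Ranger and filtered cells in Seurat 2.3.4. The authors deposited unnormalized UMI counts for 4 libraries (WT4 and WT5, KO4 and KO5). The other 5 were deposited as natural log values, ln(1 + UMIs per 10000), and whole UMIs were recovered from them (100% of values within 1e-06 of a whole number). Genes not listed in a file were set to 0.

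Cells of 1000 to 5000 genes, 1800 to 10000 UMIs, under 6% mitochondrial and at most 1% haemoglobin UMIs were kept. A cell took the class of which it held at least 2 markers and the highest share of the marker list, and doublets were not called. Class means (at least 20 cells, or 40 for splits at the median) were tested with limma-trend with robust variances on log2(mean UMIs per 10000 + 1) for genes at a mean of at least 0.1 in 2 libraries (limma 3.58.1, R 4.3.3), a scale that understates changes of low genes. edgeR 4.0.16 and DESeq2 1.42.0 on summed UMIs served as alternatives, since 5 of the 9 files hold logs. Of the steps, only the limma fit was tried on simulated counts, which held no library effects or mixed classes. Groups follow the labels. Total UMIs deposited per library ranged from 348105 to 29767293, and intervals and floors cover counting error only. The 5 members were named at the outset and all are reported. The 3 genes most like each member are named. Of the lists, counts are given with examples, and those outside the 3 genes of highest level in a list were chosen after their values were seen. Members and lists were chosen with earlier results of these data known. Positions and 3′ ends are from GENCODE vM21, a later release than the authors', matched by symbol (5 of 5).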

Additional observations from a re-analysis of the deposited data

Results flagged for a closer look

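Of 10 groups of member levels, 1 held a library far from the others of its label. *Miat* in WT1 was at 1.002 UMIs per 10000, while the other 4 WT libraries lay between 0.454 and 0.551. Its gap to the nearest of them was 0.822 of the group's range, above Dixon's 95% limit of 0.710 for 5 samples, a limit that chance passes in about 1 of 20 groups. The value came from 32 UMIs in 126 cells.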

How the results depend on the processing

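Between KO and WT, the 3 calls among members became 0 to 9 when 1 library was left out: 0 without WT3, 0 without KO5, 1 without KO4, 2 without WT2 and 9 without WT4. They became 1 with a pseudocount of 0.1, 0 without a filter on low values, 0 with all libraries as labelled, 0 with WT5 added, 1 with edgeR (TMM or RLE scaling) and 0 with DESeq2. With all libraries as labelled the *Snhg11* difference in cycling cells turned to −0.039. Replicate numbers shared by WT and KO libraries were not taken as pairs, since the labels tie no animals together and 1 of 4 same-numbered pairs did not correlate (−0.05, against 0.30, 0.30 and 0.56, over 1483 genes), while 2 of 4 WT libraries correlated best with their own number. Still, a fit with the replicate number as a block called 0 members, with *Snhg11* at −0.12 in cycling cells and −0.0175 in newborn neurons. Against upper layer cells the 3 calls, *Neat1* apart, became 2 without WT2 or without WT4. They became 7 without WT5, KO4 and KO5, a setting added after the data were seen. In the comparison by UMIs per cell, 0 calls became 2 without these 3 libraries. By mitochondrial share, 0 calls became 0 to 1 when 1 library was left out, and 1 when the lowest quartile was set against the highest (*Malat1* in deep layer cells, −0.52, adjusted p = 0.013). The cause of these changes was not tested, save that fewer samples entered some fits. With 1 library left out, a lone KO library was assumed to vary like the others. Over all members and settings, *Neat1* in microglia included, 2526 values kept their side of the threshold, 39 lost a call, 26 gained one and 3 reversed. With 124 *Neat1* UMIs, depth limits what can be said of it.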
